A study of Mus musculus with 160 samples.

Results

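The cells described here are old bone marrow mesenchymal stem cells of the mouse, divided by whether they list the transcript of complement component C3. The series holds 160 cells, each sequenced on its own, of which 78 came from old and 82 from young C57BL/6J mice. The series title speaks of loss of p53, but no genotype or treatment is given for any cell. Every cell was sorted from bone marrow by the same surface markers: CD45, Ter119 and CD31 negative, LepR and CD140a positive. The labels give an age of 24 months for the old mice and 9 weeks for the young mice, whereas the extraction protocol gives 2 years and 10 weeks. Cells were caught on a Fluidigm C1 chip, which isolates single cells in wells, and their RNA was amplified with SMARTer chemistry. The labels tie no cell to an animal. Each age is therefore treated as 1 sample, cells are not replicates, and no difference below has a test.

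A gene counted as listed in a cell at 1 FPKM or more (fragments scaled by transcript length and by the cell's mapped fragments, as deposited). A cell was a member when it listed 600 or more named genes, which 58 of the 78 old cells did. The members fell into 44 cells with C3 at 1 FPKM or more (75.9%, exact 95% interval 62.8 to 86.1%) and 14 cells with C3 below 1 FPKM (24.1%, interval 13.9 to 37.2%). C3 and the number of listed genes chose the cells, so their values are a description. All intervals are exact Clopper-Pearson intervals at 95% and cover counting error only. The deposited FPKM carry no read counts, so the depth of a cell is unknown, and an FPKM of 0 can be a failed estimate.

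Complement is a cascade of plasma proteins that marks microbes and damaged cells for removal. C3 is its central component: the classical, lectin and alternative routes all meet at the cleavage of C3, which releases the signalling peptide C3a and leaves C3b bound to the target. Most plasma C3 comes from the liver, but fibroblasts, adipocytes and other stromal cells also make it. Transcription of C3 is known to respond to interleukin-1, interleukin-6, tumour necrosis factor and interferon gamma, and the C/EBP and NF-kB families act at its promoter. Marrow cells that carry the leptin receptor are known for making CXCL12 and stem cell factor, which hold blood stem cells in place.

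The C3 promoter is shown because the inducers and binding factors described further on are known to act there. The sequence is the 250 bases before the gene's start at chr17:57228137-57228386 on the minus strand, taken from RefSeq on the build GRCm38.p6, which is not the mm9 build of the deposited values. Capitals mark matches, read on both strands, to TTNNGNAA (C/EBP) and to GGG and CC with 5 bases of any kind between them (NF-kB).
C3 promoter: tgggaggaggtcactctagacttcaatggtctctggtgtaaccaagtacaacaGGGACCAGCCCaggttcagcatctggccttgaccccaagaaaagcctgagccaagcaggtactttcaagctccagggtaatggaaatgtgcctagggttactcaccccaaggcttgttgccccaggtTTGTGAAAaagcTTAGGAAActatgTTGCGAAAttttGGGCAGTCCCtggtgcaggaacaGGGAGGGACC
Matches to the C/EBP letters formed 3 separate stretches and matches to the NF-kB letters formed 3. The window held 0 matches to TTCNNNGAA (STAT) and 0 to TATAAA. Among all 32851 promoter windows of this length, 36.8% held the C/EBP letters, 45.8% the NF-kB letters, 7.02% the STAT letters and 12.4% TATAAA. A match describes letters in this window and was not tied to any value below.

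In the 44 cells with C3, its level ran from 1.40 FPKM through a median of 14 FPKM (quartiles 5.69 and 37.4) to 337.6 FPKM. It was 10 FPKM or more in 29 of them and 100 FPKM or more in 4. The 14 cells without C3 had a median of 0.00957 FPKM and a highest value of 0.702 FPKM, and 4 of them stood at exactly 0. The members nearest to the division lay at 1.40, 1.47 and 1.56 FPKM above it and at 0.702, 0.526 and 0.315 FPKM below it. Apart from these 3, the cells without C3 stood at 0.0244 FPKM or lower. C3 has 2 rows in the table, and in old cells only the second held values, above 0 in 68 of the 78 cells.

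**Figure D1:**
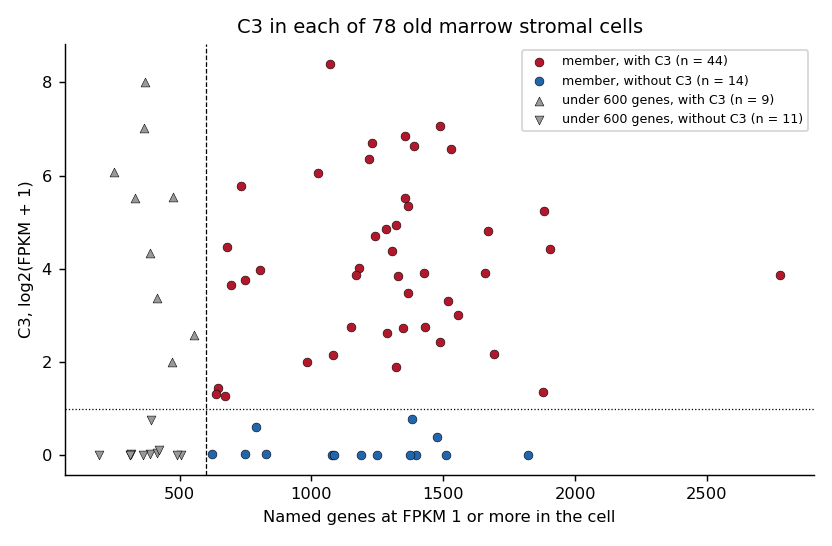
Each point is 1 of the 78 old cells. The horizontal axis is the number of named genes at 1 FPKM or more and the vertical axis is C3 as log2(FPKM + 1), with the 600-gene minimum dashed and the C3 division dotted. Members with C3 (44, red) and without C3 (14, blue) overlap over most of the range of gene numbers, and the 20 cells under the minimum (grey) lie on both sides.

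The number of listed genes differed little between the members of both sides, but more so when cells under the minimum were added. Cells with C3 listed a median of 1321 genes (quartiles 1080 and 1487, range 637 to 2779), and cells without C3 a median of 1219 (quartiles 890 and 1394, range 622 to 1822). With no minimum of genes per cell the medians were 1241 and 746, with a minimum of 400 they were 1296 and 1081, and with a minimum of 1000 they were 1356 and 1377. Summed FPKM of named genes had medians of 75819 and 66278. Rows without a gene name took medians of 43.5% and 47.3% of the FPKM of all rows. The sums ran from 35905 to 7384320 with C3 and from 22242.5 to 230049 without. The highest were those of old cells 12 (680 listed genes, C3 at 21.2 FPKM) and 44 (sum 2911310, 804 genes, C3 at 14.7 FPKM). The division took C3 as deposited, and whether these cells would keep their side at an equal sum was not tested. Over all 3957 genes compared the median difference was 3.25 percentage points in share and 0.10 in mean log2(FPKM + 1). Among the 20 old cells below the minimum, 9 listed C3 (45%, interval 23.1 to 68.5%). This share was lower than the 75.9% (interval 62.8 to 86.1%) of the members. The intervals overlap, which does not show the shares to be alike, and the difference was not tested. The gene number of a cell moves with how often any gene is listed, and its part in single differences was not tested beyond the matched and restricted settings given at the end.

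The cells carried the markers of the gate and of marrow stroma on both sides. Lepr, the leptin receptor and a gate marker, was listed in 43 of 44 cells with C3 and 12 of 14 without. Cxcl12 was listed in 44 and 13, with median levels of 889 and 797 FPKM. Kitl, which encodes stem cell factor, was listed in 41 and 12 cells, and Adipoq, which encodes adiponectin, in 42 and 13. The transcription factors Ebf1 and Foxc1 were each listed in 79.5% and 71.4%. Pdgfra, which encodes the gate marker CD140a, was listed in fewer cells, 50% and 42.9%. Fewer transcripts and failed estimates cannot be told apart here: the housekeeping gene Gapdh was listed in 50% and 42.9%, whereas Actb and B2m were listed in all 58.

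Most defining markers of other marrow cells were at or near 0 on both sides. Ptprc (the leukocyte antigen CD45), Csf1r, Lyz2 and Tyrobp of macrophages, Pecam1, Cdh5, Kdr and Emcn of endothelium, Acta2, Myh11, Rgs5 and Cspg4 of pericytes and smooth muscle, and Sox10 of Schwann cells were listed in 0 members. The cartilage genes Acan and Col2a1 were also listed in 0. Cd68 of macrophages was listed in 1 cell without C3. Of the Schwann list, Pmp22, a myelin gene that other cells also express, was listed in 16 of 44 cells with C3 and 9 of 14 without and was called higher without C3, a difference of -1.32. Summed FPKM over the 9 Schwann rows had medians of 10.5 and 11.9 and reached 335 with C3 and 729 without. Its part in the other differences was not tested. In 0 of the 58 members were 3 or more genes of the hematopoietic, erythroid, endothelial, pericyte, Schwann or chondrogenic lists listed. Summed FPKM over the 22 hematopoietic rows ran from 0 to 761 with C3 and from 0 to 124.5 without, both with a median of 0. Of the fibroblast list, 3 or more genes were listed in 79.5% of cells with C3 and 78.6% without, and its summed FPKM had medians of 163.1 and 210.9. Of the 20 proliferation genes, 3 or more were listed in 3 cells with C3 and 0 without.

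Genes other than C3 were compared by a rule of size. A gene was called when the share of cells listing it differed by 20 percentage points or more and mean log2(FPKM + 1) differed by 1 or more in the same direction. Differences are given as cells with C3 minus cells without C3. Of the 3957 genes listed in at least 10% of members, 105 were called higher in cells with C3 (2.65%) and 66 higher in cells without C3 (1.67%). With 14 cells on the smaller side the shares are imprecise: the intervals of the 2 shares lay apart for 4 genes, 0.101% of all compared. These were Lpp and Atp6v1g1, both higher with C3, and Sugt1 and Vcl, both higher without C3. These 4 were picked after their values were seen. Of the 105 and 66 calls, 0 and 0 were kept under all 17 other settings tried. Dividing the cells at any C3 above 0 turned the sign of 15 called genes, and dividing at 10 FPKM that of 13. Of the genes named below, these include Gnas, Psma2, Rps7, Dad1, Arf4, Apoe and the joint row of Asah1 and Frg1.

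**Figure D2:**
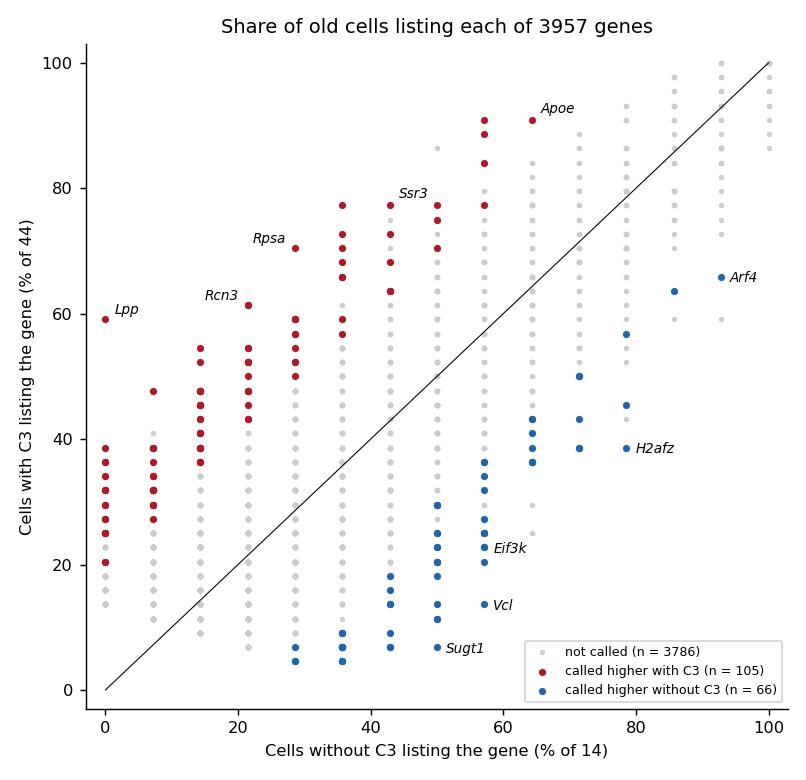
Each point is 1 of 3957 genes (several genes can share a point). The horizontal axis is the percentage of the 14 cells without C3 that list the gene and the vertical axis the percentage of the 44 cells with C3. Red points are the 105 genes called higher with C3, blue points the 66 called higher without C3, and the diagonal marks equal shares. Most genes lie near the diagonal, and Lpp lies at 59.1% against 0%.

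No other complement gene was called on either side in old cells, but few could be compared. Across 5 complement lists with 50 rows in the table, 12 rows were listed in enough members. Of these 12, 7 were higher with C3, and 0 were called in either direction. Over all 3957 genes, 57.3% were higher with C3, 2.65% were called higher with C3 and 1.67% higher without. A further 32 rows were listed in no member.

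In the classical route, C1s and C1ra encode the proteases that start the cascade, and C4 and C2 form the enzyme that cleaves C3. C1s was listed in 70.5% of cells with C3 and 78.6% of cells without, at medians of 15.9 and 5.50 FPKM. C1ra was listed in 54.5% and 50%, at medians of 1.70 and 1.36 FPKM. The row that joins C4a and C4b was listed in 86.4% and 78.6%, from 0 through medians of 9.45 and 5.50 to 140 and 63.5 FPKM. The ranges of all 3 overlap between the sides. A separate row named C4b was listed in 5 of 44 cells and 0 of 14, too few to enter the comparison, and C2 in 5 of 44 and 1 of 14. Of the 4 rows compared, 2 were higher with C3 in mean log2(FPKM + 1) and 2 lower. The differences were 0.60 for C1s, 0.46 for the joint row of C4a and C4b, -0.23 for C1ra and -0.04 for C2. C1qa, C1qb and C1qc, the recognition subunits that macrophages make, were listed in none.

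In the alternative route, Cfb encodes factor B, the partner of C3b in the enzyme that amplifies C3 cleavage. It had the widest gap in share of these genes, 18 of 44 cells with C3 (40.9%, interval 26.3 to 56.8%) against 2 of 14 without (14.3%, interval 1.78 to 42.8%). Its level ran from 0 through a median of 0.0213 to 194.5 FPKM with C3, and from 0 through 0 to 108 FPKM without, so the sides overlap. Mean log2(FPKM + 1) was 1.36 ± 2.02 (SD over cells) and 0.68 ± 1.83, a difference of 0.67 that did not reach the calling rule. In young cells divided the same way Cfb was listed in 25.0% and 19.6%, with a difference of 0.33. Cfd and Cfp, which encode factor D and properdin, were listed in no member.

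Among the regulators of complement, some were abundant on both sides. Serping1, the C1 inhibitor, was listed in all 58 members, from 13.7 through a median of 157 to 719 FPKM with C3 and from 8.69 through 131 to 835 FPKM without. Clu, which encodes clusterin, was listed in 75% and 85.7%, with medians of 46 and 13.2 FPKM and a difference in mean log2 of 0.78. The ranges of both regulators overlap between the sides. Cr1l, a membrane regulator, was listed in 22.7% and 14.3%. Of the terminal components, C6 was listed in 11.4% and 14.3%, while Hc, which encodes C5, was listed in none. In young cells C6 was listed in 56.3% and 31.4%, a difference of 1.20, and was called higher with C3. The receptors C3ar1 and C5ar1, which bind C3a and C5a, were also listed in none, and C5ar2 was listed in 11.4% and 7.14%.

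**Figure D3:**
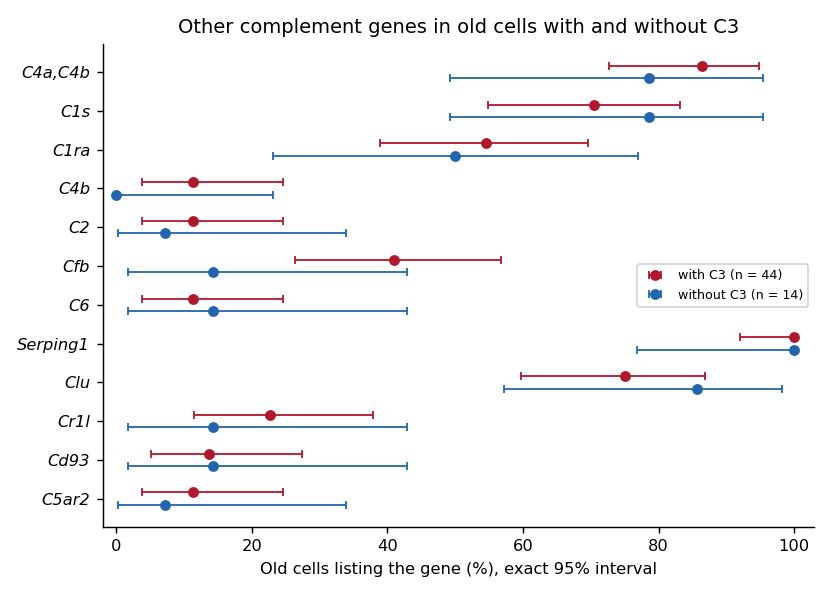
Percentage of old cells that list each complement gene (horizontal axis), with exact 95% intervals, for 44 cells with C3 (red) and 14 cells without C3 (blue). The intervals of both sides overlap for all 12 rows shown. Serping1 is at 100% on both sides, and Cfb shows the widest gap, 40.9% against 14.3%.

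Genes known to induce or regulate C3 were mostly higher in the cells with C3. Of 21 compared, 17 were higher with C3, against 57.3% of all 3957 genes. Only 1 was called higher, against 2.65% of all genes, and 0 were called lower. The median difference was 0.44 against 0.10 over all genes. The called gene was Il1r1, the signalling receptor for interleukin-1. Il1r1 was listed in 32 of 44 cells with C3 (72.7%, interval 57.2 to 85.0%) and 6 of 14 without (42.9%, interval 17.7 to 71.1%). Its level ran from 0 through a median of 15.7 to 573 FPKM with C3 and from 0 through 0.216 to 71.9 FPKM without. The sides overlap, but the median cell with C3 held Il1r1 well above the listing level and the median cell without did not. Mean log2(FPKM + 1) was 3.84 ± 2.93 and 2.09 ± 2.66, a difference of 1.75.

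Receptors of the other inducing cytokines differed less. Osmr, the oncostatin M receptor, was listed in 54.5% and 35.7%, with a difference of 0.98, and Tnfrsf1a, a receptor of tumour necrosis factor, in 31.8% and 7.14%, with a difference of 0.88. Il6st, the shared signalling chain of the interleukin-6 family, was listed in 43.2% and 28.6%. Lifr, the leukaemia inhibitory factor receptor, went the other way, 75% and 85.7%, with a difference of -0.32. Of the interferon gamma receptor chains, Ifngr1 was listed in 43.2% and 42.9% and Ifngr2 in 34.1% and 21.4%. None of these was called. The genes of this list other than Il1r1, Osmr, Lifr and Esr1 were picked for mention by their role, after their values were seen.

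The transcription factors known to act at the promoter shown above had medians below 1 FPKM on both sides. Cebpb was listed in 43.2% and 35.7%, with a difference of 0.23, and Cebpd in 45.5% and 21.4%, with a difference of 0.54. Cebpa was listed in 18.2% and 21.4%. Nfkb1, an NF-kB subunit, was listed in 7 of 44 cells with C3 and 0 of 14 without, where the interval allows up to 23.2%, and Relb in 6 of 44 and 0 of 14. Nfkbia, an NF-kB inhibitor that is itself induced by NF-kB, was listed in 36.4% and 28.6%. Stat3 was listed in 29.5% and 21.4%. Esr1, the oestrogen receptor, was listed in 18.2% and 35.7%, with the lowest difference of the list, -0.69.

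Young cells divided in the same way gave other values for this list. Of the 20 inducers compared there, 9 were higher with C3, and the median difference was -0.08 against 0.12 over all genes. Some members had similar differences at both ages. Il1r1 was listed in 93.8% of the 16 young cells with C3 and 76.5% of the 51 without, with a difference of 1.58. Nfkbia differed by 0.77 in old and 0.80 in young cells, and Nfkb1 by 0.45 and 0.62. Osmr was listed in 18.8% and 37.3% of young cells, with a difference of -1.11, and Tnfrsf1a in 18.8% and 31.4%, with a difference of -0.44. Whether the ages differ was not tested.

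The gene with the largest difference was Rcn3, which encodes reticulocalbin 3, a calcium-binding chaperone of the secretory pathway. It was listed in 27 of 44 cells with C3 (61.4%, interval 45.5 to 75.6%) and 3 of 14 without (21.4%, interval 4.66 to 50.8%). Its level ran from 0 through a median of 13.4 to 2330.3 FPKM with C3 and from 0 through 0.00605 to 830.7 FPKM without. Its mean log2(FPKM + 1) was 4.15 ± 3.88 and 1.25 ± 2.73, a difference of 2.90, and 1 cell without C3 was as high as the upper cells with C3. In young cells its difference was -0.08.

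Lpp, a LIM-domain protein of focal adhesions, was the gene most fully on one side. It was listed in 26 of 44 cells with C3 (59.1%, interval 43.2 to 73.7%) and 0 of 14 without, where the interval allows up to 23.2%. Its level ran from 0 through a median of 2.16 to 392 FPKM with C3, and its highest value without C3 was 0.155 FPKM. The difference in mean log2 was 2.21. Young cells showed no such division: Lpp was listed in 43.8% of those with C3 and 43.1% of those without, with a difference of -0.06. The pattern of Atp6v1g1, a subunit of the proton pump of lysosomes, turned round between the ages. It was listed in 17 of 44 old cells with C3 and 0 of 14 without, a difference of 1.93, but in 0 of 16 young cells with C3 and 31.4% of those without, a difference of -1.62.

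Other genes called higher with C3 included Ssr3, Hsp90ab1, Pdia6 and Derl1. Ssr3, a subunit of the translocon-associated complex, was listed in 77.3% and 42.9%, from 0 through a median of 14.2 to 322 FPKM with C3 and from 0 through 0.799 to 28.4 FPKM without, and the difference was 2.16. In young cells it was listed in 87.5% and 58.8%, a difference of 0.92. Hsp90ab1, a cytosolic chaperone, was listed in 68.2% and 35.7%, with medians of 19.4 and 0.190 FPKM and a difference of 2.06. Pdia6, a disulphide isomerase, was listed in 59.1% and 28.6%, a difference of 1.68. Derl1, which acts in disposal of misfolded proteins, was listed in 31.8% and 7.14%, a difference of 1.22. Young cells gave smaller differences: 0.18 for Hsp90ab1, 0.26 for Pdia6 and 0.26 for Derl1. In old cells the list of endoplasmic reticulum folding and stress genes as a whole did not lean towards the cells with C3. Of 26 compared, 12 were higher with C3, 2 were called higher and 1 lower, and the median difference was -0.09. Over all 3957 genes, 57.3% were higher with C3, 2.65% were called higher and 1.67% lower, and the median difference was 0.10. The 1 called higher without C3 was Herpud1, listed in 22.7% and 50%, a difference of -1.45. Hspa5, the main chaperone of the compartment, was listed in 86.4% and 100%, with a difference of -0.81.

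Receptor and signalling genes were also among the 15 largest, with predicted, ribosomal and small RNA genes skipped. Fgfr2, a receptor of fibroblast growth factors, was listed in 68.2% and 42.9%, from 0 through a median of 8.93 to 413 FPKM with C3 and from 0 through 0.0309 to 74.8 FPKM without. Its difference was 1.96 in old cells and -0.06 in young cells. Wisp2, a secreted factor linked to Wnt signalling, was listed in 54.5% and 21.4%, with medians of 4.90 and 0.0140 FPKM and a difference of 1.87, against -0.97 in young cells. Gnas, which encodes the stimulatory G protein subunit, was listed in 65.9% and 35.7%, a difference of 1.77. A single cell held 86.4% of all Gnas FPKM, at 14382 FPKM, but the share and the mean log2 do not rest on it. Csmd1 had 1 such cell as well, with 94.5% of its FPKM, and its value sums 3 rows. Csmd1 was listed in 72.7% and 35.7%, with medians of 12.5 and 0.0241 FPKM.

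The rest of the 15 included a pair of genes of fatty acid oxidation. Etfb, which passes electrons from fatty acid oxidation to the respiratory chain, was listed in 16 of 44 cells with C3 and 0 of 14 without, a difference of 2.01. Ech1, an enzyme of fatty acid oxidation, was listed in 14 of 44 and 0 of 14, a difference of 1.74. The joint row of Acad11 and Ccrl1 was listed in 52.3% and 21.4%, and its value cannot be given to either gene. Cpne8, a copine, was listed in 47.7% and 14.3%, and Rbms1, an RNA-binding protein, in 59.1% and 28.6%. In young cells Etfb differed by -0.29, Ech1 by 0.93, Cpne8 by -0.15 and Rbms1 by -0.69.

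Among genes called higher in cells without C3, H2afz had the largest difference. It encodes the histone variant H2A.Z. It was listed in 11 of 14 cells without C3 (78.6%, interval 49.2 to 95.3%) and 17 of 44 with (38.6%, interval 24.4 to 54.5%). Its level ran from 0 through a median of 92.4 to 423 FPKM without C3 and from 0 through 0.0657 to 447 FPKM with C3. The upper cells of both sides reached the same level, and the sides differed in how many cells stood near 0. Mean log2(FPKM + 1) was 5.22 ± 3.45 without C3 and 2.49 ± 3.27 with, a difference of -2.73. In young cells the difference had the other sign, 0.64.

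Other large differences towards the cells without C3 were those of Vcl, Tpm3, Eif3k and Eef1d. Vcl, which encodes vinculin of focal adhesions, was listed in 8 of 14 cells without C3 (57.1%, interval 28.9 to 82.3%) and 6 of 44 with (13.6%, interval 5.17 to 27.4%), at medians of 4.33 and 0 FPKM, a difference of -2.09. Its young difference was -0.21. Tpm3, a tropomyosin, was listed in 57.1% without C3 and 27.3% with, a difference of -2.18. Eif3k, a subunit of a translation initiation factor, was listed in 57.1% without C3 and 22.7% with, at medians of 23.7 and 0 FPKM, a difference of -2.60. Eef1d, an elongation factor subunit, was listed in 5 of 14 cells without C3 and 2 of 44 with. Young cells gave 0.81 for Tpm3, 0.08 for Eif3k and 0.81 for Eef1d, all opposite to the old cells.

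Sugt1, a co-chaperone, was listed in 7 of 14 cells without C3 (50%, interval 23 to 77%) and 3 of 44 with (6.82%, interval 1.43 to 18.7%), a difference of -2.09. A single cell with C3 held its highest value, 508 FPKM, above the 93.0 FPKM reached without C3. Hdac2, a histone deacetylase, was listed in 6 of 14 and 3 of 44, a difference of -1.71. Cyba, a subunit of the NADPH oxidase, was listed in 57.1% without C3 and 20.5% with, a difference of -1.97. Uqcrc2, a core subunit of respiratory complex III, was listed in 5 of 14 and 2 of 44, a difference of -1.64. Arf4, a small GTPase of Golgi transport, was listed in 92.9% without C3 and 65.9% with, at medians of 79.2 and 12.1 FPKM. Cetn3, Srsf7, Dad1, Psma2 and the joint row of Asah1 and Frg1 completed the 15, with differences of -1.96, -1.92, -1.89, -1.73 and -1.68.

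**Figure D4:**
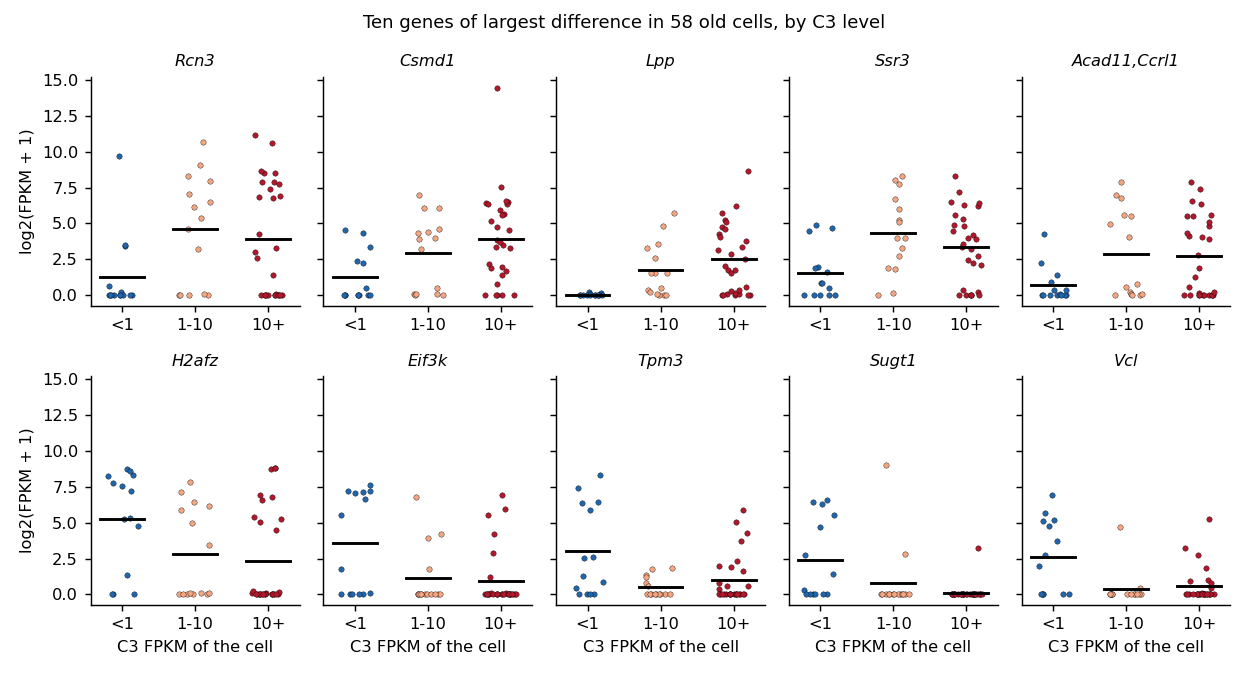
log2(FPKM + 1) (vertical axis) of the 5 genes with the largest difference in each direction, in cells with C3 below 1 FPKM (14, blue), from 1 to under 10 FPKM (15, orange) and of 10 FPKM or more (29, red). Predicted, ribosomal and small RNA genes were skipped in this choice. Each point is 1 cell and the bar is the mean. The upper row is higher with C3 and the lower row higher without. Every gene has cells near 0 in each class, and Lpp is near 0 in all 14 cells without C3.

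The calls could be set against the level of C3, since C3 varied widely within the 44 cells. Cells with C3 from 1 to under 10 FPKM (15) and of 10 FPKM or more (29) were each compared with the 14 cells without C3. These cells are the ones that made the calls, so the values describe how the calls arose. Of the 105 genes called higher with C3, 104 were higher in the lower class and 105 in the upper class, and 63 lay further from the cells without C3 in the upper class. Their median of mean log2(FPKM + 1) was 0.66 without C3, 1.82 in the lower class and 2.15 in the upper class. For the 66 genes called higher without C3 the same medians were 2.35, 0.74 and 0.96, and 26 lay further away in the upper class. The larger first step in both medians is favoured by the calling rule, which chose genes by their distance from the cells without C3. For the genes higher without C3, the second step went back towards those cells. Whether genes follow the level of C3 was not tested. In Cyr61, a matrix protein of the immediate early response, the second step was the larger. Its values were 0.93 without C3, 1.19 in the lower class and 3.40 in the upper class. Il1r1 was higher in the lower class (4.43) than in the upper class (3.54).

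Young cells were divided by the same rule, and they share no cell with the old members. Of 67 young cells with 600 or more listed genes, 16 listed C3 (23.9%, interval 14.3 to 35.9%) and 51 did not. The young and old chips also differ in sex markers: Xist, expressed from the inactive X chromosome, was listed in 81.8% and 92.9% of the old members with and without C3 and in 0 of the young cells, so age, sex and chip cannot be told apart. Young cells with C3 listed a median of 1338 genes and those without 1142, a wider gap than in old cells. In young cells 180 of 3664 genes were called higher with C3 (4.91%) and 16 higher without (0.437%).

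The old calls were seldom found again in young cells. Of the 105 genes called higher with C3 in old cells, 99 could be compared in young cells, and 57.6% had the same sign there against 59.4% of all 2997 genes compared at both ages. The same call was made for 6 of them (6.06%, against 5.44% of all genes). The opposite call was made for 2 of the 99, against 16 of all 2997 genes (0.534%). Of the 66 genes called higher without C3, 59 could be compared, 32.2% had the same sign against 40.6% of all genes, and 1 had the same call (1.69%, against 0.534% of all genes). The opposite call was made for 4 of the 59, against 163 of all 2997 genes (5.44%). For the genes called higher with C3, the shares with the same sign and the same call lay close to those of all genes.

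Called the same way at both ages were Atp5f1, Ehmt1, Fam120a, Rora, Rpl13 and Tceb2, all higher with C3, and Socs2, higher without. Rora, a nuclear receptor, was listed in 50% and 21.4% of old cells and 56.3% and 35.3% of young cells, with differences of 1.36 and 1.59. Ehmt1, a histone methyltransferase, differed by 1.46 and 1.27. Tceb2, which encodes elongin B, differed by 1.67 and 1.47. Socs2, a feedback inhibitor of cytokine receptors, was listed in 34.1% of old cells with C3 and 57.1% without, and in 12.5% and 35.3% of young cells, with differences of -1.06 and -1.30. Its call in old cells was kept in 6 of the 14 comparisons that each left out a cell without C3. These 7 genes are named because both ages called them, which was seen in the values.

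Gene lists that bear on C3 and on marrow stroma were read by their counts and medians, beside the values over all genes. Of all genes, 57.3% were higher with C3, 2.65% were called higher with C3 and 1.67% higher without, and the median was 0.10. Of 9 acute phase genes compared, 8 were higher with C3, 0 were called, and the median difference was 0.43. Hp, which encodes haptoglobin, was listed in 79.5% and 57.1%, with medians of 41.1 and 10.8 FPKM and a difference of 0.91, against 1.67 in young cells. Mt1, a metallothionein, was listed in 54.5% and 35.7%, a difference of 1.37, against 1.48 in young cells. Lbp differed by 0.13 in old cells and by -0.95 in young cells. Of the 9 acute phase genes, 5 were higher with C3 in young cells, with a median difference of 0.25. There 1 was called higher with C3 and 1 higher without. Cp, which encodes ceruloplasmin, was listed in 44 of 44 and 13 of 14, with medians of 55.1 and 62.1 FPKM. Of 5 inflammatory chemokines and cytokines compared, 5 were higher with C3 and 0 were called. Cxcl5 was listed in 6 of 44 cells and 0 of 14, and a single cell held 88.3% of it.

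Of 22 interferon response genes, 18 were higher with C3, 1 was called, and the median difference was 0.31, against 57.3% higher and 2.65% called over all genes. The called gene was Psmb9, an immunoproteasome subunit, listed in 12 of 44 and 1 of 14, a difference of 1.10. Its share differed by 20.1 points, and the call was kept in 1 of the 14 comparisons that each left out a cell without C3. Among 17 class I antigen presentation genes, 9 were higher with C3 and 2 were called, Psmb9 and the joint row of Tapbp and Zbtb22. That joint row was listed in 21 of 44 and 1 of 14, a difference of 1.62. B2m, the light chain of class I molecules, was slightly lower with C3, at medians of 645 and 728 FPKM.

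The marrow stromal list had the highest median of the lists with 5 or more genes compared, 0.62. Of 14 compared, 12 were higher with C3 and 1 was called, and young cells gave 0.53 with 10 of 14 higher. The called gene was Cdh2, which encodes N-cadherin, listed in 47.7% and 14.3%, a difference of 1.28, and a single cell held 56.3% of its FPKM. Adipoq ran from 0 through a median of 254 to 1395 FPKM with C3 and from 0.115 through 86.2 to 558 FPKM without, a difference of 0.94. Pdgfrb was listed in 81.8% and 64.3%, a difference of 1.11 that missed the rule on shares, and was -0.01 in young cells. Of 10 adipogenic genes, 7 were higher with C3 and 1 was called. This was Apoe, listed in 90.9% and 64.3%, with medians of 80 and 37.4 FPKM. Lpl, the lipoprotein lipase, was listed in 93.2% and 85.7%, a difference of 0.98.

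The blood stem cell niche factors were split evenly. Of 16, 8 were higher with C3, and the median difference was 0.04. Angpt1, which encodes angiopoietin-1, was the only one called, higher without C3: it was listed in 9 of 14 cells without C3 and 16 of 44 with, at medians of 5.59 and 0.00194 FPKM, a difference of -1.07. Its call was kept in 9 of the 14 comparisons that left out a cell. Cxcl12 differed by 1.17, but nearly all cells of both sides listed it, and the spread without C3 was wide, from 0.104 to 1428 FPKM. Spp1, which encodes osteopontin, was listed in 31.8% and 42.9% of old cells, a difference of -0.88, against 100% and 80.4% of young cells, a difference of 2.39. Stromal transcription factors (13 of 25 higher, 0 called) and osteogenic genes (9 of 15 higher, 0 called) had medians of 0.06 and 0.04. Ibsp, a bone matrix protein, was nonetheless among the high genes, at medians of 359 and 161 FPKM.

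Some genes differed by more than 1 in mean log2 but by less than 20 points in share, and so were not called. Sparc, which encodes the matrix protein osteonectin, was listed in 93.2% and 78.6%, with medians of 52.4 and 6.94 FPKM and a difference of 1.5, against 0.81 in young cells. Gpx3, the secreted glutathione peroxidase, was listed in 44 of 44 and 13 of 14, with medians of 448 and 199 FPKM and a difference of 1.26, against 1.11 in young cells. Ibsp differed by 1.32 and Bgn, which encodes biglycan, by 1.19, against 0.55 and 1.18 in young cells, though a single cell held 63.2% of Bgn. In the other direction, Map1lc3b, a protein of autophagosomes, was listed in 45.5% and 64.3%, a difference of -1.67, and Cox6a1, a subunit of respiratory complex IV, in 45.5% and 64.3%, a difference of -1.77. Both fell short of the 20 points in share, and young cells gave 0.52 and 0.88.

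Matrix genes were divided. Over all 3957 genes, 57.3% were higher with C3, 2.65% were called higher with C3 and 1.67% higher without. Of 13 collagens, 6 were higher with C3, 1 was called higher without, and the median difference was -0.24, the lowest of the lists with 5 or more genes compared. The called gene was Col5a2, listed in 20.5% and 50%, a difference of -1.14, with the call kept in 11 of the 14 comparisons that left out a cell. Of 22 proteoglycan and elastic fibre genes, 12 were higher and 1 was called. This was Fbln5, which encodes fibulin-5, listed in 88.6% and 57.1%, and its call was kept in 8 of the 14 comparisons that left out a cell. Among 21 matrix proteases and their inhibitors, 15 were higher with C3, and the called gene was Mmp23, listed in 14 of 44 and 1 of 14. Young cells gave 0.96 for Col5a2 and -0.43 for Mmp23, both opposite to the old cells, and 0.74 for Fbln5.

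The signalling lists each had 1 called gene, higher with C3, beside 2.65% of all genes called that way. The IGF, TGF-beta and BMP, Wnt and retinoic acid lists had 11, 19, 15 and 5 genes compared. Of these, 6, 8, 10 and 3 were higher with C3, against 57.3% of all genes, so the lists did not lean alike. The called gene was Pappa, a protease that frees insulin-like growth factors, in the IGF list (63.6% and 42.9%, a difference of 1.22, but -1.05 in young cells). It was Bmp5 in the TGF-beta and BMP list (38.6% and 14.3%, a difference of 1.26, and 1.23 in young cells). In the Wnt list it was Wisp2, given above. In the retinoic acid list it was Rarres2, which encodes chemerin (70.5% and 50%, a difference of 1.68, and 1.06 in young cells). Leaving out a cell without C3 at a time kept the call of Pappa in 6 of 14 comparisons and that of Rarres2 in 7. Aldh1a2, which makes retinoic acid, was listed in 77.3% and 71.4%. Igf1 was listed in 45.5% and 57.1%, Vcam1 in 84.1% and 71.4%, and Phex in 63.6% and 42.9%, and none of these 4 was called.

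Lists of general cell functions went in different directions. Of 32 antioxidant and detoxifying genes, 20 were higher with C3, the median difference was 0.32 and 2 were called, Prdx5 (47.7% and 14.3%) and Gsr (56.8% and 28.6%). Of 24 lysosome and autophagy genes, 15 were higher, with a median of 0.25, and the called one was Grn, which encodes progranulin, listed in 52.3% and 14.3%. Of 14 p53 targets and senescence genes, 7 were higher and 0 were called. Oxidative phosphorylation had 28 of 56 higher, 1 called with C3 and 3 without, and cytosolic ribosomal proteins 31 of 76 higher (median -0.13), 6 called with C3 and 3 without. Over all genes, 57.3% were higher with C3, 2.65% were called with C3 and 1.67% without. Within the ribosome the calls went both ways: Rpsa was listed in 70.5% and 28.6%, a difference of 2.09, and Rps7 in 43.2% and 71.4%, a difference of -2.44. In young cells both of these lists leaned towards the cells with C3, by medians of 0.53 and 0.63, beside the wider gap in gene number given above.

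**Figure D5:**
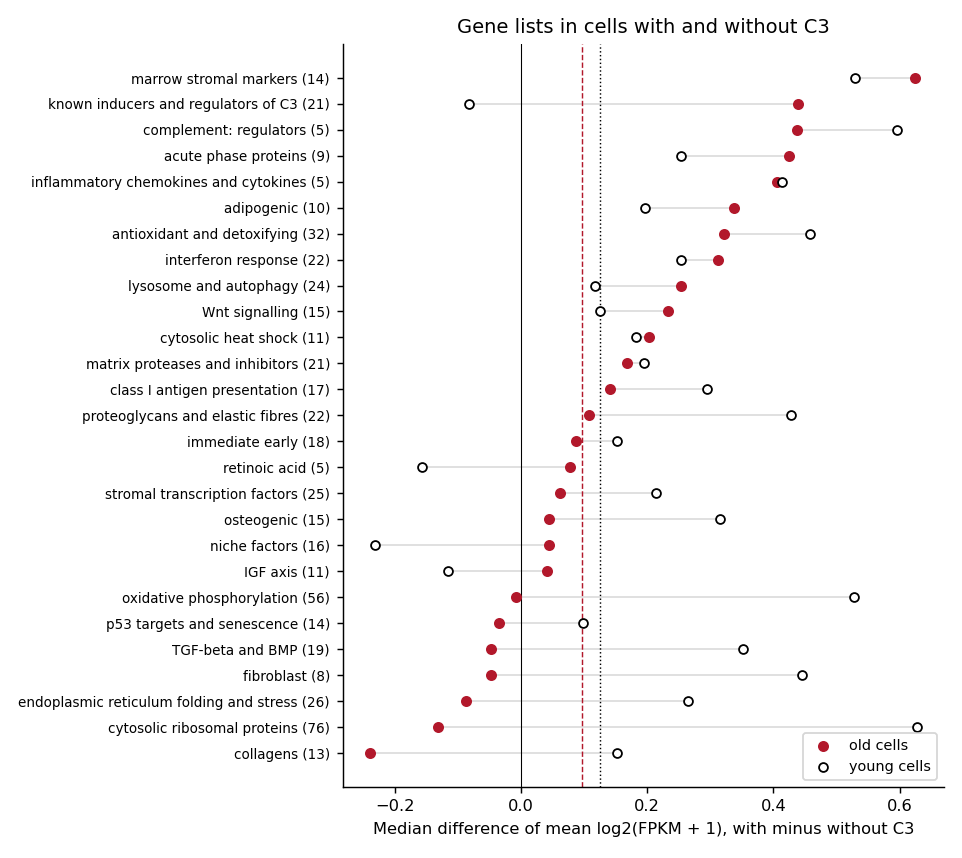
Median difference of mean log2(FPKM + 1), cells with C3 minus cells without (horizontal axis), for each gene list with at least 5 genes compared in old cells (number in parentheses). Filled points are old cells and open points young cells. The dashed and dotted lines are the medians over all genes, 0.10 in old cells and 0.12 in young cells. Marrow stromal markers lie highest in old cells at 0.62 and collagens lowest at -0.24, and the inducers of C3 lie at 0.44 in old and -0.08 in young cells.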

How the data were processed

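The deposited table gives FPKM per gene and cell as made by the authors, with Cufflinks 2.1.1 on the build mm9 per the submitters' processing notes. For filters and depth, details were not given in the sources used here. Of 31199 rows, 7751 without a gene name were dropped, and the rows of 468 repeated names were summed, leaving 22866 names. A further 356 rows join several symbols. All columns matched a listed cell, and 0 cells had identical columns. Doublets had been removed under the microscope per the labels' protocols, and no caller was run.

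Values were compared as shares of cells at FPKM 1 and as mean log2(FPKM + 1), a pseudocount of 1 that understates differences of low genes. The same values in young cells were set beside them under these settings only. Named genes are the 15 largest called differences in each direction, skipping predicted, ribosomal and small RNA genes, and from each of 38 lists the 2 highest, the 2 lowest and the 2 most abundant. The division, the members and the lists were chosen with earlier results of these data known. Genes shown from the lists were picked after their values were seen. The steps were tested on simulated data. Python 3.11.15, pandas 2.3.3, numpy 2.4.6, scipy 1.17.1 and matplotlib 3.10.9 were used. A few genes of the lists are not reported here.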

Additional observations from a re-analysis of the deposited data

How the results depend on the processing

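The counts of called genes depended strongly on the settings. Against 105 genes higher with C3 and 66 higher without, a pseudocount of 0.1 gave 241 and 133, and one of 10 gave 7 and 6. Listing at any FPKM above 0 gave 54 higher with C3, and genes listed in 25% of members gave 39 higher without. With no minimum of genes per cell, 148 and 4 were called, with a minimum of 400, 116 and 27, and with a minimum of 1000, 174 and 165. The median gene number then differed by 495, 215 and -21, against 102 at 600. Dividing at C3 above 0 put 93.1% of members on the side with C3 and gave 347 and 320, against only 4 cells without. Dividing at 10 FPKM put 50% there and gave 23 higher without C3. With 14 cells with C3 matched in gene number to the 14 without, 182 and 212 were called, of which 57 and 57 were calls at the original setting. Restriction to the middle range of gene number (21 and 7 cells) gave 246 and 281, the 600 highest genes of each cell 61 and 42, and leaving out cells of extreme summed FPKM gave 126 higher without C3. Of the named genes, Gnas (-0.25), Psma2 (0.15) and Rps7 (0.47) changed sign at C3 above 0, and Dad1 (0.027), Arf4 (0.32), the joint row of Asah1 and Frg1 (0.26) and Apoe (-0.0439) at C3 of 10 FPKM. The cause was not tested.

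Over 17 alternatives, 0 of the 105 and 0 of the 66 called genes kept the call in all, while 90 and 50 kept the sign. Leaving out each cell without C3 in turn, an alternative added after the data were seen, gave 102 to 137 genes higher with C3 and 65 to 95 higher without, and 91 and 30 genes kept the call in all 14. Of 35 lists with a value, 29 took both signs over the 17 alternatives. The other 6 included the inducers of C3 (0.15 to 0.78), the marrow stromal markers (0.25 to 1.13) and the acute phase genes (0.13 to 1.03). No paired analysis was possible because the cell numbers are names within an age and the sides hold different cells.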
